A study of Petromyzon marinus with 6 samples.

Results

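The 300 most abundant loci of the sea lamprey (*Petromyzon marinus*) brainstem transcriptome were ranked by their mean level over 6 RNA-Seq samples, and the 296 of them that the study does not list in its supplementary tables are described here, out of 57134 loci in the count table. The loci were chosen by their level in CPM, the fragments of a locus per 1000000 fragments counted in the sample, so the levels are a description and carry no test. The ranking used their mean over both groups and not the difference between the groups. That difference entered through the exclusion, since 2 of the loci left out are listed by the study for GABA from these same samples. All samples came from larval lampreys of 5–7 years from the river Ulla with a complete spinal cord transection. GABA-treated animals were kept with GABA at 500 µM in the water and control animals without it, with 3 samples each. The study's methods place the dissection at 29 days post-lesion (dpl), while the text deposited with the series gives 9 days. Each sample pooled the RNA of 4 brainstems, so that single animals cannot be separated, and whole brainstem mixes neurons with glial, ependymal, meningeal and blood cells. In such bulk samples, fewer cells of a type and less RNA per cell cannot be told apart.

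GABA (γ-aminobutyric acid) is the main inhibitory neurotransmitter of the vertebrate brain, and the lamprey brainstem holds the descending neurons whose axons a spinal transection cuts. In poly(A)-selected RNA of most animal tissues, a small part of the genes takes a large part of the reads, and short messages for ribosomal proteins, cytoskeleton and energy metabolism are commonly among them. The loci here are transcript models assembled from reads on the germline genome assembly Pmar_germline 1.0. They carry assembly identifiers without gene names, so no function is given to any of them. A fragment count grows with transcript length as well as with the number of molecules, so the level per kilobase of exon is given beside the CPM.

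The samples held 14666153, 13655132 and 13266414 counted fragments in GABA replicates 1 to 3, and 14248306, 12560944 and 12261374 in control replicates 1 to 3. Of the loci, 54031 had at least 1 count and 24300 passed the filter on low counts and were tested. All 296 abundant loci passed it. Marker loci that the study names were present for several cell types. The summed level of 3 neuronal markers (CPLX1, GABRA5 and CARTPT) was 1232–1486 CPM in GABA-treated samples and 1283–1458 CPM in control samples. CPLX1 made up most of that sum, and the other two are loci that the study lists for GABA from these samples and lay apart in opposite directions. GABRA5 was at 89.7, 105 and 98.5 CPM in GABA-treated samples against 64.6, 49.9 and 80.3 CPM in control samples, and CARTPT at 318, 315 and 377 CPM in GABA-treated samples against 432, 403 and 391 CPM in control samples. The summed level of 3 blood cell markers (PTPRC, VLRA and CD62L) was 23.4–31.0 CPM in GABA-treated samples and 19.7–37.6 CPM in control samples. VIM was the only locus taken as a marker of glial and ependymal cells, and the study lists it for GABA. It lay at 493–600 CPM in GABA-treated samples and 592–763 CPM in control samples. Whether its level follows these cells was not tested. The enzymes TAT and tryptophan 2,3-dioxygenase, typical of liver, summed to 350–464 CPM in GABA-treated samples and 305–442 CPM in control samples, most of it from TAT at rank 358. The part of such cells in the values below was not tested.

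The highest locus was MSTRG.7078, a short model of 3 exon blocks and 1038 bp of exon on the minus strand of contig PIZI01000008.1 (17745307 to 17747284). It had 7565, 8589 and 8205 CPM in GABA-treated samples, against 9053, 8803 and 8899 CPM in control samples. The groups did not overlap. MSTRG.7700 (PIZI01000009.1, 12429275 to 12438958, minus strand, 11 exon blocks, 2761 bp of exon) followed with 7484, 6397 and 7183 CPM in GABA-treated samples and 7639, 7195 and 8000.5 CPM in control samples. MSTRG.320 (PIZI01000001.1, 9599518 to 9604981, plus strand, 8 exon blocks, 1821 bp) had 5171, 4679 and 4776 CPM in GABA-treated samples and 5090, 5251 and 5248 CPM in control samples. For both of these loci the groups overlapped, since GABA replicate 1 was above at least 1 control sample. MSTRG.21214 (PIZI01000032.1, 1647404 to 1650834, plus strand, 4 exon blocks, 1073 bp) had 4025, 3418 and 3768 CPM in GABA-treated samples and 3898, 4314 and 4536 CPM in control samples, again with GABA replicate 1 inside the control range. These 4 loci kept their order in each of the 6 samples.

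MSTRG.5913 (PIZI01000007.1, 3646435 to 3664688, minus strand, 12 exon blocks, 1765 bp) had 2829, 2708 and 2946 CPM in GABA-treated samples and 3116, 2979 and 2989 CPM in control samples, and the groups did not overlap. The next 5 loci lay close together, at means of 2654 CPM for MSTRG.3678, 2610 for MSTRG.8946, 2575 for MSTRG.24473, 2567 for MSTRG.20462 and 2543 for MSTRG.1875. Their ranges over the samples overlapped, so that their order among themselves was within the spread. MSTRG.3678 had 2635, 2267 and 3019 CPM in GABA-treated samples, a wider range than its 2612, 2645 and 2748 CPM in control samples. Of these 10 highest loci, 9 held 12 or fewer exon blocks on at most 3081 bp of exon, and MSTRG.1875 (PIZI01000002.1, 24434042 to 24513127, plus strand) was the exception with 16244 bp in 11 blocks.

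Together the 296 loci, 0.518% of the loci in the table, held 25.4–26.9% of all counts. Their share was 25.8, 25.4 and 26.1% in GABA-treated samples and 26.4, 26.4 and 26.9% in control samples. The means were 25.8% ± 0.329 in GABA-treated and 26.5% ± 0.267 in control samples (SD, n = 3 each), a difference of −0.775 percentage points. The groups did not overlap, and an exact permutation test gave a two-sided p of 0.1, the smallest that 3 against 3 samples allow, so that this comparison cannot reach 0.05. The 10 highest loci held 3.93% ± 0.155 of the counts in GABA-treated samples and 4.22% ± 0.101 in control samples, and the highest locus alone 0.757, 0.859 and 0.820% in GABA-treated samples against 0.905, 0.880 and 0.890% in control samples. Of the −0.775 points, −0.285 lay in the 10 highest loci and −0.490 in the other 286, or −0.459 in the 50 highest and −0.316 in the other 246. Taken singly, 199 of the 296 loci had a lower mean share in GABA-treated samples. At least 1 count was found at 46831, 47085 and 47209 loci in GABA replicates 1 to 3. In control replicates 1 to 3 this held for 46540, 45866 and 44752 loci. The part of this library difference in the shares was not tested.

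**Figure D1:**
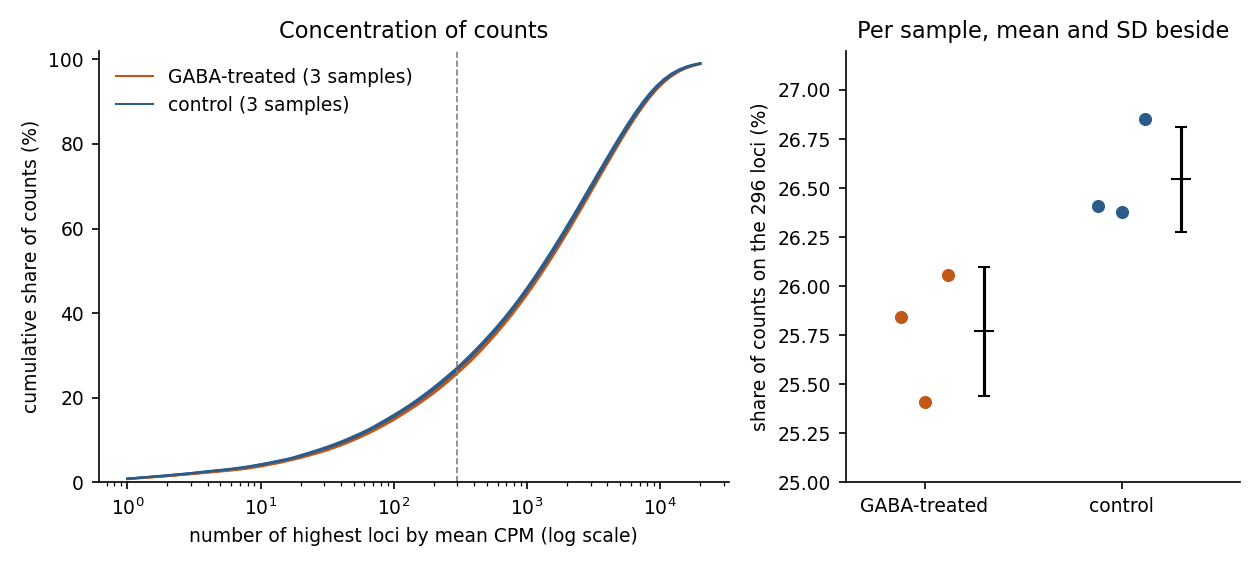
Left, the cumulative share of all counts (%) held by loci in order of their mean CPM (log scale), with a dashed line at 300 loci. Right, the share (%) held by the 296 abundant loci in each sample, with the mean and SD of each group and an axis that does not start at 0. The 3 GABA-treated samples sit between 25.4 and 26.1%, all below the 3 control samples at 26.4 to 26.9%.

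Over the 296 loci the mean level ran between 413 and 8519 CPM, with a median of 627 CPM and quartiles of 494 and 978 CPM. The lower end of the ranking was dense. The last loci inside it were MSTRG.26273 at 414.3 CPM and MSTRG.14679 at 413.3 CPM, and the first outside were MSTRG.31323 at 412.7 CPM and MSTRG.22934 at 411.8 CPM. MSTRG.14679 had 412, 418 and 381 CPM in GABA-treated samples and 372, 450 and 447 CPM in control samples, and MSTRG.31323 just outside had 414, 399 and 404 CPM in GABA-treated samples and 405, 396 and 458 CPM in control samples. Ranked in each sample alone, 283–288 of the 296 loci were among the 300 highest of a GABA-treated sample and 280–287 among those of a control sample. In all 6 samples this held for 261 loci, and the lowest rank of any of them in 1 sample was 553.

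The 4 loci left out as listed by the study were GTF2F2 (a general transcription factor subunit, rank 40, 1334 CPM), CPLX1 (complexin-1, a presynaptic protein, rank 88, 891 CPM), an unnamed locus at rank 139 (655 CPM) and VIM (vimentin, an intermediate filament protein, rank 159, 614 CPM). GTF2F2 and VIM are in the study's list for GABA, which was drawn from these same samples. Their removal therefore takes away, by construction, abundant loci that were picked for a difference between the groups. With all 4 put back, the share was 26.1% in GABA-treated and 26.9% in control samples, a difference of −0.806 points.

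Scaled by length, as a level per kilobase over the union of each locus's exons, rescaled to the CPM total (TPM), the order changed for much of the list. MSTRG.7078 stayed first at 28715 TPM, followed by MSTRG.21214 at 13022 TPM, MSTRG.320 at 9677 TPM, MSTRG.7700 at 9274 TPM and MSTRG.14965 at 7690 TPM. MSTRG.14965 (PIZI01000021.1, 1443816 to 1447146, minus strand, 3 exon blocks, 707 bp of exon) was only at rank 28 by CPM, with 1408, 1381 and 1574 CPM in GABA-treated samples and 1592, 1677 and 1692 CPM in control samples, which did not overlap. MSTRG.1875, at rank 10 by CPM, was at rank 193 by TPM. Of the 296 loci, 146 were also among the 300 highest by TPM. These had a median of 3214.5 bp of exon in 7 blocks, while the other 150 had a median of 11632 bp in 14 blocks. In their place, 152 loci were among the 300 highest by TPM only, with a median of 1050 bp of exon and 213 CPM, and 45 of the abundant loci lay beyond rank 1000 by TPM. Across the 296 loci the CPM had a Spearman correlation with exonic length of −0.16, and the TPM, which is divided by that length, one of −0.91.

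**Figure D2:**
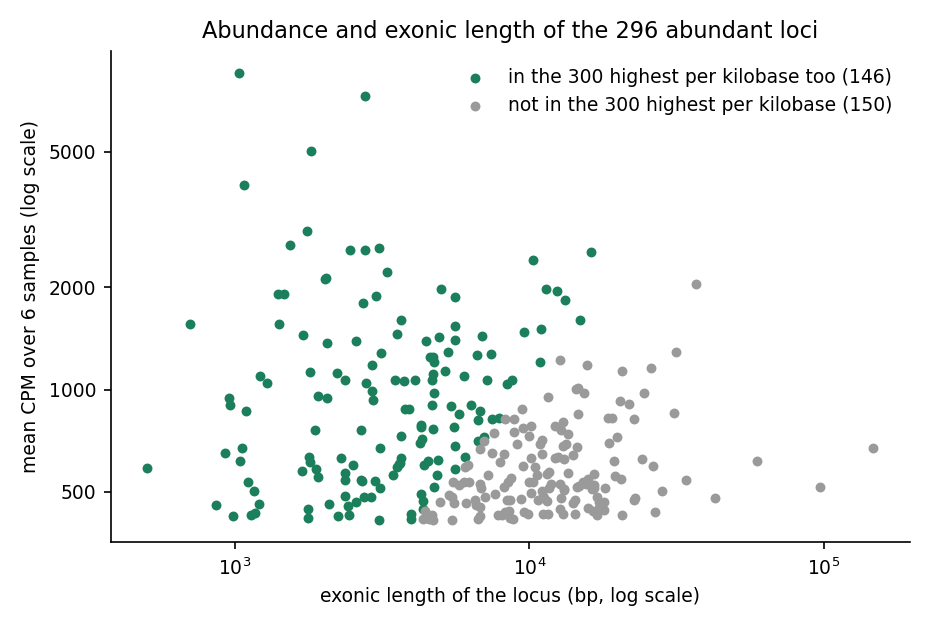
Mean CPM over 6 samples (log scale) against the exonic length of each of the 296 abundant loci (bp, log scale), coloured by whether the locus was also among the 300 highest per kilobase. The 146 loci in both rankings lie towards shorter lengths (median 3214.5 bp) and the other 150 towards longer ones (median 11632 bp).

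The abundant loci were long models with several exons. Their median exonic length was 6747.5 bp (quartiles 3403 and 12459 bp) in 9 exon blocks (quartiles 6 and 16), on a span of 28400 bp, of which exons covered a median of 20.1%. All tested loci had medians of 2505 bp, 4 blocks and 32.7% of the span. Loci at ranks 301 to 1000, of which 691 were not listed by the study, had 7391 bp and 11 blocks, so the structure of the abundant loci was close to that of the next ones down and set apart from the bulk of the table. As counts collect with length, the ranking is not independent of these measures. The models were also assembled from the study's own reads, so length and block number can depend on the number of reads of a locus. The part of read number in these measures was not tested.

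Few of them consisted of a single exon block. Blocks are the union of all exons listed for a locus, so a single block does not show that introns are absent. A single exon block was found in 6 of the 296 loci (2.03%), against 5791 of the tested loci (23.8%), and 20 or more blocks in 49 (16.6%), against 1628 (6.70%). The single-block loci were far longer than the shortest models, at 2907 to 10971 bp. MSTRG.26237 (PIZI01000042.1, 10281464 to 10292434, plus strand, 10971 bp) was the highest of them, with 1367, 1549 and 1650 CPM in GABA-treated samples and 1591, 1445 and 1463 CPM in control samples. MSTRG.8447 (PIZI01000010.1, 12438070 to 12443674, plus strand, 5605 bp) had 1442, 1360 and 1374 CPM in GABA-treated samples and 1423, 1347 and 1422 CPM in control samples. In both, the groups overlapped. These loci were chosen after their values were seen, as all models with 1 block.

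**Figure D3:**
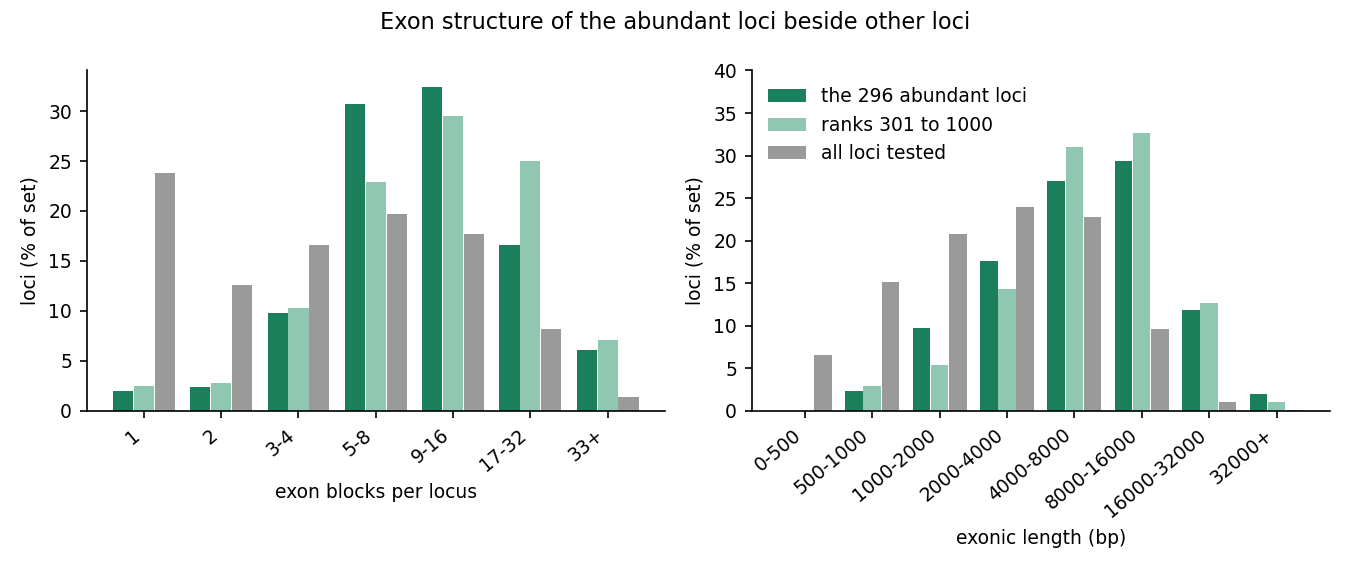
Share of loci (%) by number of exon blocks and by exonic length, for the 296 abundant loci, loci at ranks 301 to 1000 and all tested loci. A single block is seen in 2.03% of the abundant loci, 2.46% of loci at ranks 301 to 1000 and 23.8% of the tested loci. The shares with 9 to 16 blocks are 32.4, 29.5 and 17.7% in the same order.

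A span above 200 kb was found in 41 loci (13.9%), against 1390 of the tested loci (5.72%). Loci at ranks 301 to 1000 had a larger median span than the abundant loci, 35867 against 28400 bp. The abundant models with the most blocks and the largest spans were the same pair. MSTRG.35517 (PIZI01000081.1, 3002 to 1930507, plus strand) held 125 blocks and 147070 bp of exon, and MSTRG.35519 (23819 to 1885818, minus strand) held 93 blocks and 96742 bp. Both cover the same stretch of the contig on opposite strands, and their exons do not overlap. MSTRG.35517 had 670, 653 and 660 CPM in GABA-treated samples and 643, 702 and 706 CPM in control samples. MSTRG.35519 had 525, 482 and 499 CPM in GABA-treated samples and 488, 535 and 568 CPM in control samples. In both, the groups overlapped. Per kilobase they were low, at 16.0 and 18.7 TPM and ranks 9627 and 8518, far below the 347 TPM that was the median of the abundant loci. Whether each is 1 gene or several joined in assembly was not tested.

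The loci lay on 89 of the 6286 contigs that hold a locus, 144 on the plus and 152 on the minus strand. On 34 contigs there was 1 of them, and 25 contigs with at least 5 held 172. PIZI01000003.1 held 14 and PIZI01000001.1 held 12, which are 2.39 and 2.55 per 100 tested loci of the contig, against 1.22 per 100 over all tested loci. PIZI01000011.1 held 9 (1.95 per 100), and PIZI01000007.1, PIZI01000009.1 and PIZI01000030.1 held 8 each (2.42, 1.94 and 3.83 per 100). Over the 25 contigs the values ran between 1.12 and 5.45 per 100. These contigs were picked for holding the most abundant loci, which by itself favours values above that of all tested loci. Neighbouring loci in the table were both abundant in 2 cases. MSTRG.13076 and MSTRG.13077 lie 273 bp apart on the plus strand of PIZI01000017.1, with 2 blocks each and means of 706 and 475 CPM, and MSTRG.31936 and MSTRG.31937 lie 12980 bp apart on the minus strand of PIZI01000058.1. Whether the first pair are separate transcripts was not tested.

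Exons of 202 of the 296 loci (68.2%) were overlapped by a locus on the other strand, against 34.7% of the tested loci. The abundant loci had a median of 6747.5 bp of exon and the tested loci 2505 bp, and longer exons leave more room for overlap. The parts of length and of read number in these shares were not tested. The libraries were stranded and counted by strand. In 354 of the 408 such pairs the opposite locus had under 1% of the counts of the abundant one, and in 10 pairs it had over 10%. The median over the pairs was 0.0373%. Whether opposite loci with so few counts are transcripts of their own was not tested. The highest was MSTRG.9202 at 33.5% of the counts of MSTRG.9201 (PIZI01000011.1, 13048653 to 13127181, plus strand, rank 292). In 0 pairs were both loci among the 296.

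Replicates of the abundant loci lay close together. The coefficient of variation of the CPM within a group (CV) had a median of 5.07% over GABA-treated samples and 5.03% over control samples, against 12.1 and 12.4% for all tested loci. Counting error alone would give a median of 1.09% for the abundant loci and 9.86% for the tested loci. The CV was below the counting error for 12 loci in GABA-treated and 11 in control samples, and above it for the others. Loci at ranks 301 to 1000 had medians of 4.75% in GABA-treated and 4.91% in control samples, close to those of the abundant loci. The sample with the highest CPM was control replicate 3 for 93 loci, and the lowest was GABA replicate 2 for 96 loci.

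The control samples differed least for MSTRG.27489 (PIZI01000045.1, 7948211 to 8001410, minus strand, 16 exon blocks, rank 26). It had 1462, 1505 and 1546 CPM in GABA-treated samples and 1697, 1691 and 1687 CPM in control samples. Its CV was 2.79% over GABA-treated samples and 0.272% over control samples, where counting error alone would give 0.674%. The groups did not overlap, with a log2 fold change of −0.21 ± 0.06 (SE, edgeR adjusted p = 0.721). The locus was picked for its narrow control range, which by itself favours groups that lie apart. MSTRG.2439 (PIZI01000003.1, 9821284 to 9897657, plus strand) had 1202, 1334 and 1381 CPM in GABA-treated samples around 1274, 1276 and 1266 CPM in control samples.

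The widest spread belonged to MSTRG.46644 on the small contig PIZI01001563.1 (7850 to 10624, plus strand, 4 exon blocks, 954 bp of exon, rank 79). It had 1012, 801 and 464 CPM in GABA-treated samples and 781, 1114 and 1496 CPM in control samples, with a CV of 36.4% in GABA-treated and 31.6% in control samples. The groups overlapped. MSTRG.51147, a single block on PIZI01004459.1 (2623 to 9295, minus strand), had 713, 924 and 854 CPM in GABA-treated samples and 976, 816 and 598 CPM in control samples. A CV over 15% in either group was found in 12 loci. Of the 8 abundant loci on contigs whose last locus ends before 100 kb, 4 were among these 12, and of the other 288 loci, 8. This grouping was made after the values were seen, and the part of the contigs' placement in it was not tested.

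**Figure D4:**
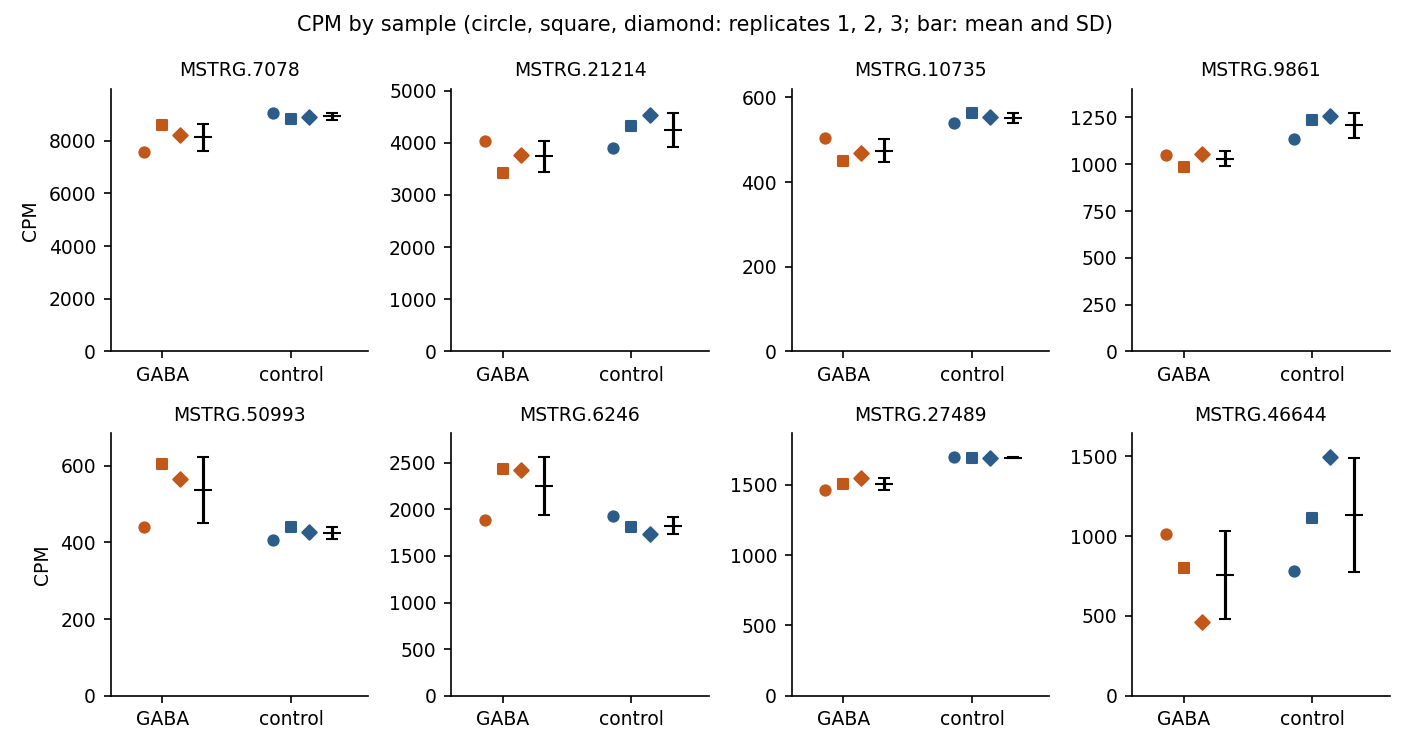
CPM of 8 loci in each sample, with GABA-treated samples in orange left of control samples in blue and bars for the mean and SD (n = 3 each), all axes starting at 0. The groups do not overlap for MSTRG.7078, MSTRG.10735, MSTRG.9861, MSTRG.50993 and MSTRG.27489, and overlap for MSTRG.21214, MSTRG.6246 and MSTRG.46644.

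Between GABA-treated and control samples, none of the abundant loci passed the test, and most of them lay slightly lower with GABA. Of the 296 loci, 235 (79.4%) had a log2 fold change (GABA over control) below 0, against 48.5% of all tested loci, and the median was −0.08 (quartiles −0.13 and −0.02, range −0.62 to 0.30), against 0.006 over all tested loci. In edgeR (quasi-likelihood test, p adjusted over all tested loci by Benjamini-Hochberg), 0 of the 296 and 0.0% of all 24300 were called, with a smallest adjusted p of 0.718 among the 296. DESeq2 with default settings called 0 of the 296 and 0.384% of the loci to which it gave an adjusted p. Since the listed loci were left out and every DESeq2 call was a listed locus, that 0 follows from the rule. An unadjusted edgeR p under 0.05 was given to 51 loci (17.2%, against 6.55% of all tested loci), 47 of them lower (15.9%) and 4 higher (1.35%) with GABA. Over all tested loci the shares were 3.47% lower and 3.08% higher. At ranks 301 to 1000 they were 10.4% lower and 0.868% higher, and 72.4% of the log2 fold changes there were below 0. The fold changes were small. A size above 0.25 on the log2 scale was found for 10 loci and above 0.5 for 1, MSTRG.46644. The median standard error was 0.07 for the abundant loci and at ranks 301 to 1000, against 0.18 over all tested loci. A smaller standard error by itself favours a p under 0.05. The value of −0.62 for MSTRG.46644 rested on single samples: it was −0.35 without control replicate 3 and −0.37 without GABA replicate 3, and −0.89 without GABA replicate 1.

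The CPM of the groups did not overlap for 42 loci that were lower with GABA (14.2%) and 9 that were higher (3.04%), against 3.99% and 8.4% of all tested loci. At ranks 301 to 1000, where the replicate spread was close to that of the abundant loci, the shares were 8.68% and 5.21%. A smaller spread by itself favours groups that lie apart. The size of the shift depends on the scaling. With TMM, which sets libraries to a common level over most loci, 70 were apart and lower (23.6%) and 2 apart and higher (0.676%). The shares were 15.3% and 2.17% at ranks 301 to 1000, and 6.37% and 5.98% over the tested loci. Fitted with column totals only, the median over the abundant loci was −0.03 and that over all tested loci 0.05, with 67.2% of the abundant loci below 0. Set against the median of all tested loci, the abundant loci lay at −0.08 in both fits. Without GABA replicate 2, 25 of the 296 loci (8.45%) had an unadjusted p under 0.05, against 4.41% of all loci tested in that fit. Without control replicate 2, 28 did (9.46%, against 5.64%), in place of 51.

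The lower loci with the smallest p were MSTRG.10735 and MSTRG.9861. MSTRG.10735 (PIZI01000014.1, 5036150 to 5120755, plus strand, 7 exon blocks, 3121 bp of exon, rank 216) had 503, 449 and 470 CPM in GABA-treated samples, against 540, 563 and 553 CPM in control samples. The means were 474 ± 27.3 and 552 ± 11.5 CPM (SD, n = 3 each, GABA-treated and control), a log2 fold change of −0.26 ± 0.07 (SE, edgeR adjusted p = 0.718). MSTRG.9861 (PIZI01000012.1, 12201396 to 12216857, plus strand, 9 exon blocks, 2221 bp, rank 57) had 1050, 984 and 1053 CPM in GABA-treated samples, against 1133, 1235 and 1257 CPM in control samples. Its log2 fold change was −0.27 ± 0.07 (SE, edgeR adjusted p = 0.718). DESeq2 gave it an adjusted p of 0.0506 with default settings and 0.248 without independent filtering, its own filter on low counts. Loci that DESeq2 called with default settings had been left out as listed. In both loci all GABA-treated samples were below all control samples, and neither passed the threshold of 0.05.

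The higher loci with the smallest p were both long models. MSTRG.50993 (PIZI01004322.1, 1 to 14077, plus strand, 11 exon blocks, 12848 bp, rank 236) had 441, 605 and 566 CPM in GABA-treated samples, against 408, 441 and 426 CPM in control samples. Its lowest GABA-treated sample was at 441.2 CPM and its highest control sample at 440.8 CPM, so the groups only just separated, and with TMM scaling they overlapped. The log2 fold change was 0.30 ± 0.10 (SE, edgeR adjusted p = 0.729). MSTRG.6246 (PIZI01000007.1, 15242634 to 15452113, plus strand, 17 exon blocks, 36656 bp, rank 15) had 1888, 2431 and 2428 CPM in GABA-treated samples, against 1929, 1812 and 1740 CPM in control samples, with a log2 fold change of 0.26 ± 0.09 (SE, edgeR adjusted p = 0.729). GABA replicate 1 lay inside its control range.

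The 10 highest loci all had a log2 fold change below 0, between −0.23 for MSTRG.21214 and −0.06 for MSTRG.3678. The CPM of the groups did not overlap for 2 of the 10, against 12.4% of all tested loci in either direction. For MSTRG.7078 the log2 fold change was −0.18 ± 0.07 (SE, edgeR adjusted p = 0.729). Without GABA replicate 2, 8 of the 10 remained below 0. Along the ranking the median was −0.09 for ranks 1 to 50, −0.07 for ranks 201 to 300, −0.04 for ranks 301 to 600, −0.03 for ranks 1001 to 3000 and −0.0009 for ranks 6001 to 12000. The lower values were thus not particular to the 300 highest. At ranks 301 to 1000, 72 of the 691 loci (10.4%) were lower with GABA at an unadjusted edgeR p under 0.05. Over all tested loci that share was 3.47%.

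The difference between the groups went with the exonic length of the loci. This split was chosen after the values were seen and is given without a test. The 74 shortest loci (504 to 3290 bp) had a median log2 fold change of −0.13 with 69 below 0. The next classes of 74 (3441 to 6705 bp and 6790 to 12452 bp) had medians of −0.10 and −0.06, and the 74 longest (12480 to 147070 bp) one of −0.02 with 45 below 0. Across the 296 loci the Spearman correlation of the log2 fold change with exonic length was 0.46. The loci share the same 6 libraries and are not independent. Loci at ranks 301 to 1000, divided at the same lengths, had medians of −0.10 in the shortest and −0.003 in the longest class.

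**Figure D5:**
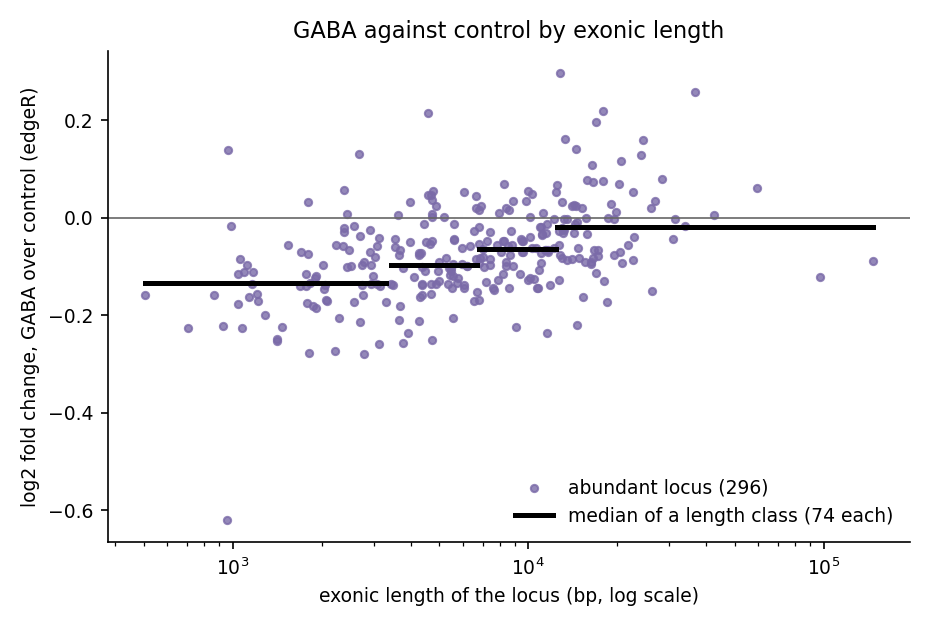
edgeR log2 fold change (GABA over control) of each of the 296 abundant loci against its exonic length (bp, log scale), with the median of each of 4 classes of equal size by length. The medians lie at −0.13 for the 74 shortest and −0.02 for the 74 longest loci.

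In the samples themselves, the 74 shortest loci held 9.42, 8.90 and 9.29% of all counts in GABA-treated samples and 9.72, 9.86 and 10.01% in control samples. The 74 longest held 5.22, 5.49 and 5.50% in GABA-treated samples and 5.32, 5.24 and 5.29% in control samples. GABA replicates 2 and 3 were high in the longest class, and GABA replicate 1 was below all control samples there. The deviation of a sample's abundant loci from their mean over samples had a Spearman correlation with exonic length of −0.13, 0.49 and 0.37 in GABA replicates 1 to 3 and −0.17, −0.36 and −0.20 in control replicates 1 to 3. GABA replicate 1 was thus on the side of the control samples. Without each sample in turn, the correlation of the log2 fold change with length ran between 0.35 (without GABA replicate 2) and 0.53 (without GABA replicate 1). With a per-library offset for exonic length fitted over all tested loci it was 0.44. Those loci had a median of 2505 bp, against 6747.5 bp for the abundant loci. The 0.44 therefore does not show what remains once the length trend of the abundant loci themselves is removed.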

How the data were processed

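Brainstem RNA of 3 GABA-treated and 3 control samples was measured by stranded, paired-end RNA-Seq of poly(A) RNA. Reads had been trimmed (fastp), mapped to Pmar_germline 1.0 (STAR), assembled into loci (StringTie) and counted by fragment and strand (featureCounts) by the authors. The deposited values are whole-number counts per locus without normalization. All 6 sample columns matched a sample, and 0 columns were left unmatched. Broken table lines of 2 loci were rejoined (MSTRG.35595, rank 55, and MSTRG.29462, rank 584). Total counts ran between 12261374 and 14666153 per sample.

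CPM were computed with column totals, and TPM over the union of each locus's exons. Loci were ranked by the mean CPM over 6 samples, the 300 highest were taken and those among the 104 loci listed by the study were left out. Loci that passed filterByExpr entered edgeR 4.0.16 with TMM scaling (quasi-likelihood test, two-sided, Benjamini-Hochberg, threshold 0.05, condition as the only term) in R 4.3.3, after a test of the fits on simulated data. Alternatives were DESeq2 1.42.0, limma 3.58.1 (voom), other scalings and filters, a length offset (lowess span 0.3), the replicate number as a block and each sample left out. Shares were compared by an exact permutation test over samples, which cannot go below p = 0.1. Exon unions and ranks were computed in Python 3.11.15 (pandas 2.3.3, scipy 1.17.1) and overlaps with bedtools 2.31.1.

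Named are the 10 highest loci by CPM, the 5 highest by TPM, up to 2 loci per direction with an adjusted p under 0.05 or, with none, the smallest p, the 2 loci on each side of rank 300, the 2 with the highest and the 2 with the lowest control CV, the 2 with the most blocks and the largest spans, and the contigs with the most loci. The loci, lists and tests were chosen with earlier results of these data known. No GC correction was made and no sequence is printed, since no genome of this build was used here. Positions count from 1.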

Additional observations from a re-analysis of the deposited data

How the results depend on the processing

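None of the 296 loci was called under any of the 17 alternative settings. Over all loci, 58 of 54031 were called by edgeR without a filter, 23 by DESeq2 with default settings, 7 by DESeq2 without independent filtering, and 0 in the other settings. The 0 under DESeq2's default settings follows from leaving out the listed loci. The 0 without independent filtering follows from it too, since that setting has the same p-values and called fewer loci. Where 0 of all loci were called, the 0 among the 296 says nothing particular to them. The smallest adjusted p among the 296 was 0.0506 with DESeq2's default settings, 0.248 with DESeq2 without independent filtering, and 0.0699 with edgeR without a filter. The median log2 fold change was below 0 in each of them, at −0.034 with column totals only (0.05 over all tested loci) and between −0.09 and −0.06 with 1 sample left out. The number of loci with an unadjusted p under 0.05 was 51 (17.2%, against 6.55% of all loci). It was 87 without a filter (29.4%, against 5.57%) and 34 with column totals only (11.5%, against 6.68%). With 1 sample left out it ran between 25 without GABA replicate 2 (8.45%, against 4.41%) and 70 without control replicate 1 (23.6%, against 7.54%). In the main fit the median standard error was 0.07 for the 296 and 0.18 for all loci, so these shares compare unlike precision. The share difference ran between −0.918 and −0.596 points with 1 sample left out. Ranked by TPM, 146 of the 296 loci were kept, and 293 to 295 with 1 sample left out. The deviations of same-numbered replicates had correlations of −0.12, 0.05 and −0.11. These cannot show that the numbers carry no pairing. The labels state none, and the main fit did not take the numbers as pairs. With the replicate number as a block, 0 loci were called and the median was −0.08. In that fit 41 loci had an unadjusted p under 0.05 (13.9%, against 5.48% of all loci). Of 391 values of 23 named loci, 9 reversed, none past the threshold. MSTRG.3678 ran between −0.17 and 0.049 and MSTRG.24473 between −0.14 and 0.0016 with 1 sample left out, both above 0 without GABA replicate 2. MSTRG.2439, at −0.004, was at 0.038 with column totals, 0.019 with a mean count of at least 100, and between −0.050 and 0.046 with 1 sample left out. MSTRG.51147, at 0.02, ran between −0.14 and 0.18 with 1 sample left out. The causes were not tested.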
